A study of Mus musculus with 18 samples.

Results

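The comparison sets the 3 arrays of undifferentiated adult stem cells of the 129SV background (adult 129SV) against the 3 arrays of undifferentiated embryonic stem (ES) cells of the Stra8-EGFP/Rosa26 background (ES Stra8). These are 6 of the 18 arrays of the series, and they differ in cell origin and in genetic background together. The remaining arrays hold 3 replicates each of undifferentiated ES 129SV, undifferentiated adult Stra8, differentiated ES 129SV and differentiated adult 129SV cells. All samples are mouse cultures, and the series title calls the adult cells multipotent adult germline stem cells. The name of the Stra8 background speaks of a green fluorescent reporter under the Stra8 promoter and of the Rosa26 locus, and the labels describe neither further. Feeder cells, passage, the number of lines behind each group and the array dates are not given in the sources used here. The adjusted p-values therefore cover only the spread among replicates, labelled biological, whose source cultures are not described.

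Total RNA was hybridised to whole-transcript arrays (Affymetrix Mouse Gene 1.0 ST), on which several short probes per gene form its probe set. All 19938 genes with a probe set of their own single name are described, with no filter on low values. Values are log2 signals made by RMA (robust multi-array average), so 1 unit is a 2-fold difference. A difference is always adult 129SV minus ES Stra8. Calls were made by limma where the p-value, adjusted by Benjamini-Hochberg over all 19938 genes, was under 0.05. Levels of different genes cannot be set against each other on these arrays.

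ES cells are taken from the inner cell mass of the blastocyst and keep a naive pluripotent state, held by transcription factors such as Pou5f1, Sox2, Nanog, Esrrb and the Klf family. Multipotent adult germline stem cells come from cultures of spermatogonial stem cells of the testis, which in the animal feed sperm production and carry paternal imprints. In culture the converted cells resemble ES cells and form several germ layers. How alike both types are at the RNA level is the question the series title names.

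All 8 markers chosen for undifferentiated pluripotent cells (Pou5f1, Nanog, Sox2, Zfp42, Esrrb, Dppa5a, Tdgf1 and Utf1) lay higher in each of the 6 arrays than in every differentiated array. Correlations over genes within the 3 replicates averaged 0.9955 in adult 129SV and 0.9978 in ES Stra8, and 0.9755 across the pair. The other pairs of undifferentiated groups averaged between 0.9707 (adult 129SV with ES 129SV) and 0.9898 (adult Stra8 with ES Stra8). Genes are not independent replicates, so these coefficients describe the arrays only. The median over all probe sets lay at 7.25 to 7.28 for adult 129SV arrays and 7.27 to 7.28 for ES Stra8 arrays.

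Many genes differed, and most of them by little. The test called 9964 of the 19938 genes, which is 50.0%. Of these, 5291 (26.5%) were higher and 4673 (23.4%) lower in adult 129SV. Differences of at least 2-fold were fewer and leaned the other way (737 genes, 3.70%), with 169 genes higher (0.848%) and 568 lower (2.85%). A 4-fold difference was reached by 3 genes on the higher and 43 on the lower side. The 95% confidence interval lay within 2-fold for 18601 genes (93.3%). The median difference over all genes was 0.09, close to the median standard error (SE) of 0.088. Shares called moved with signal level. Of the 8828 genes with a mean above 8, 31.5% were called higher and 40.4% lower, with a median of -0.048. The lists below stand beside all genes, not beside genes of like level. The 3 arrays of one group lay wholly above or below those of the other for 12160 genes, which is 61.0%.

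Because 4 undifferentiated groups were measured, each difference of the pair splits exactly into a mean effect of origin (adult minus ES over both backgrounds) and a mean effect of background (129SV minus Stra8 over both origins). The background effect was called for 51.2% of all genes and the origin effect for 35.0%. Among the 169 genes at least 2-fold higher, the background part was the larger one for 149, with a median of 0.86 beside 0.32 for origin. Among the 568 genes at least 2-fold lower it was the larger one for 507, with medians of -0.85 and -0.41. These genes were chosen by the sum of the parts, so the medians are a description. With the lines behind each group unknown, neither origin nor background can be told apart from line. In a test of the interaction, the origin effect differed between the backgrounds for 43.1% of all genes.

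The 5 largest named increases were in Muc3, Ccl3, Upp1, Lef1 and Castor1. Muc3 (chr5:137134924-137166048, mouse assembly GRCm38.p6) encodes a membrane mucin of epithelia, and read 7.90, 7.88 and 8.04 in adult 129SV against 5.75, 5.74 and 5.82 in ES Stra8. ES 129SV (5.73 to 6.02) and adult Stra8 (5.40 to 5.75) also lay low, so adult 129SV stood above the 9 other undifferentiated arrays. The difference was 2.17 (SE 0.0992, adjusted p = 5.79e-11, limma), a 4.5-fold increase. Ccl3 (chr11:83647843-83649378), a chemokine that draws monocytes and T cells, read 8.53, 8.98 and 8.87 against 6.82, 6.53 and 6.71, a difference of 2.11 (SE 0.174, adjusted p = 4.15e-08). Here ES 129SV was highest of the 4 groups at 10.08 to 10.32.

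Upp1 (chr11:9118008-9136170), the uridine phosphorylase of pyrimidine salvage, read 10.46, 10.25 and 10.41 against 8.39, 8.37 and 8.40. It rose by 1.99 (SE 0.081, adjusted p = 1.73e-11), and its levels followed the background, with ES 129SV at 10.41 to 10.51 and adult Stra8 at 8.69 to 8.78. Lef1 (chr3:131110297-131224357), a DNA-binding partner of beta-catenin in the Wnt pathway, read 9.33, 9.37 and 9.36 against 7.51, 7.42 and 7.44. It rose by 1.89 (SE 0.0685, adjusted p = 4.03e-12), and both 129SV groups lay above both Stra8 groups. Castor1 (chr11:4218166-4222409), the arginine sensor upstream of mTORC1, read 10.45, 10.60 and 10.46 against 8.64, 8.63 and 8.62, and rose by 1.87 (SE 0.0661, adjusted p = 3.34e-12).

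The other 10 increases of the 15 named ran from 1.85 in Psors1c2 to 1.63 in Dnmt3a, a de novo DNA methyltransferase. Between them lay Khdc3, a protein of the subcortical complex of the egg, the copper chaperone Atox1, the autophagy receptor Calcoco2 and the elongation factor Tcea3. The ETS factor Etv4, a target of FGF signalling, the fatty acid desaturase Fads2, the integrin chain Itga3 and the immunoproteasome subunit Psmb10 completed the set. Calcoco2 read 10.33, 10.53 and 10.37 in adult 129SV against 8.57, 8.51 and 8.65 in ES Stra8, while ES 129SV (7.59 to 7.96) and adult Stra8 (7.42 to 7.62) lay below both. Of the 15 genes, 7 lie on chromosome 11, whose genes are described as a group at the end. The rule passed over 2 small RNA genes, Snord118 and Vaultrc5 (1.71). Snord118, the U8 small nucleolar RNA, had the largest increase of all genes, at 7.54, 8.37 and 8.56 in adult 129SV against 5.85, 5.89 and 5.86 in ES Stra8, a difference of 2.29 (SE 0.189, adjusted p = 3.98e-08).

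**Figure D1:**
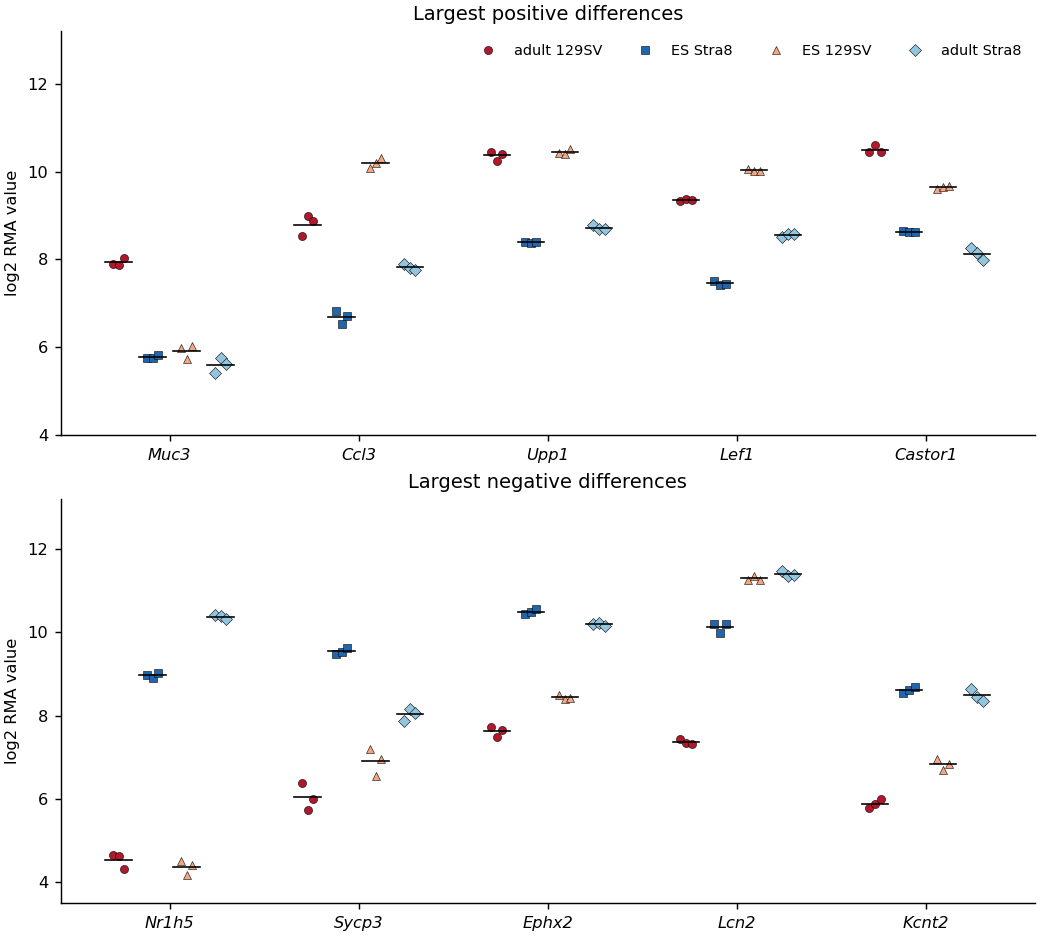
Log2 RMA values (vertical axes) of the 5 genes with the largest positive and the 5 with the largest negative named difference between adult 129SV and ES Stra8, for the 3 arrays of each undifferentiated group; points are arrays and bars are group means. Muc3 is high in adult 129SV alone, Nr1h5 is low in both 129SV groups, and Lcn2 is low in adult 129SV and high in the other 3 groups.

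The largest decrease of all genes was in Nr1h5 (chr3:102939658-102964291), the nuclear receptor FXR beta. It read 4.66, 4.62 and 4.32 in adult 129SV against 8.99, 8.90 and 9.03 in ES Stra8, a difference of -4.44 (SE 0.104, adjusted p = 9.44e-14, limma), or 21.7-fold lower. ES 129SV (4.17 to 4.52) was as low as adult 129SV, and adult Stra8 (10.33 to 10.41) was above ES Stra8, so the levels separated the backgrounds. Sycp3 (chr10:88459587-88473236), a component of the axis of meiotic chromosomes, read 6.38, 5.73 and 6.00 against 9.48, 9.54 and 9.63. It fell by 3.51 (SE 0.181, adjusted p = 2.07e-10), and both other groups lay between, at 6.56 to 7.21 in ES 129SV and 7.87 to 8.16 in adult Stra8.

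Ephx2 (chr14:66084372-66124522), the soluble epoxide hydrolase of lipid metabolism, read 7.74, 7.48 and 7.66 against 10.45, 10.48 and 10.56, a difference of -2.87 (SE 0.0759, adjusted p = 2.66e-13). Lcn2 (chr2:32384637-32387739), a secreted iron-siderophore binder of the acute phase, read 7.44, 7.34 and 7.32 against 10.21, 9.99 and 10.21, a difference of -2.77 (SE 0.0825, adjusted p = 6e-13). Adult 129SV was the low group for Lcn2, since ES 129SV (11.26 to 11.36) and adult Stra8 (11.36 to 11.47) exceeded ES Stra8. Kcnt2 (chr1:140245657-140614045), a sodium-activated potassium channel, read 5.78, 5.87 and 6.00 against 8.53, 8.61 and 8.69, a difference of -2.73 (SE 0.0946, adjusted p = 2.73e-12).

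The other 10 decreases ran from -2.71 in H2-Q4, a class I histocompatibility gene, to -2.34 in Aldh1l2, a mitochondrial enzyme of folate metabolism. They included Chac1, which degrades glutathione, the glycosyltransferase B4galnt2, the glutathione transferase Gstt2 and the maternally expressed non-coding RNA Rian. The fatty acid elongase Elovl7, the clock repressor Bhlhe41, the stress regulator Crebrf and Ankrd12 made up the rest. The rule passed over the microRNA genes Mir495, Mir411 and Mir382, described below. H2-Q4 and the Gbp, Ccl and histocompatibility genes below belong to families of near-identical copies, so their probe sets may read more than 1 member.

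**Figure D2:**
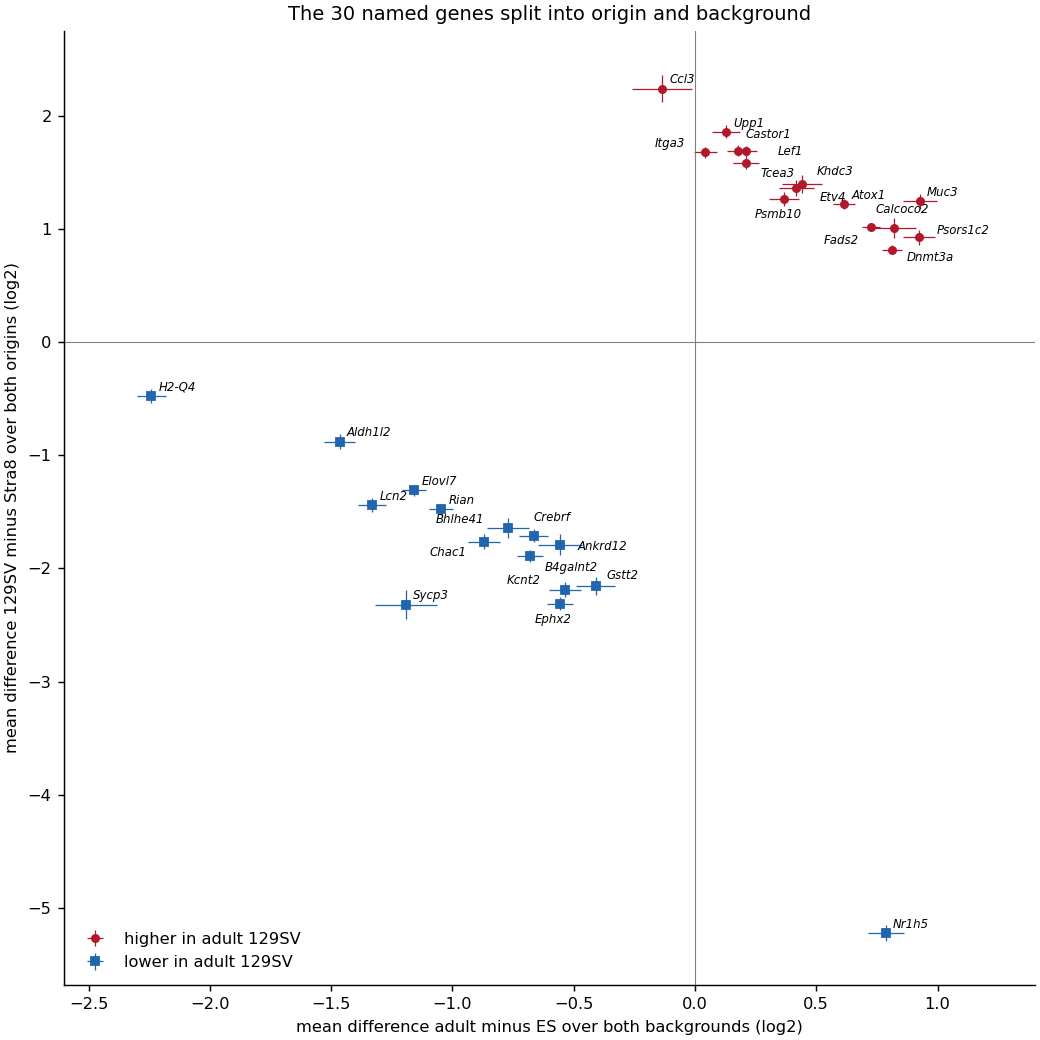
The 30 named genes placed by the mean difference adult minus ES over both backgrounds (horizontal axis, log2) and 129SV minus Stra8 over both origins (vertical axis, log2); the sum of both coordinates is the difference between adult 129SV and ES Stra8, and bars are standard errors. Nr1h5 (0.79 and -5.22) carried parts of opposite sign, whereas H2-Q4 (-2.24 and -0.47) and Aldh1l2 (-1.46 and -0.88) had the larger part in origin. For Ccl3 (-0.13 and 2.24) the origin part was not called (adjusted p = 0.442, limma), with adult minus ES at -1.41 in 129SV and 1.14 in Stra8. The origin parts are means of unlike values: adult minus ES was -4.18 in 129SV and -0.305 in Stra8 for H2-Q4, and -2.54 and -0.39 for Aldh1l2.

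Genes of the core pluripotency network differed mostly by less than 2-fold, with 1 gene beyond it on each side. Of 24 members measured, 7 were called higher and 11 lower (29.2% and 45.8%, beside 26.5% and 23.4% of all genes), with a median of -0.12. Genes with a mean above 8 gave 31.5% and 40.4%. Pou5f1, the factor that defines pluripotent cells, read 12.52, 12.54 and 12.63 in adult 129SV against 12.26, 12.26 and 12.33 in ES Stra8. The difference was 0.28 (SE 0.0965, adjusted p = 0.0232, limma), and the call was lost without adult 129SV replicate 3 (adjusted p = 0.0776) or without ES Stra8 replicate 1 (adjusted p = 0.0641) or 2 (adjusted p = 0.061). Nanog read 11.82, 11.89 and 11.96 against 12.25, 12.28 and 12.28 and fell by 0.38 (SE 0.0499, adjusted p = 6.84e-06). Its partner Sox2 read 11.41, 11.44 and 11.45 against 11.88, 11.90 and 11.92, and fell by 0.47 (SE 0.109, adjusted p = 0.00177). Larger differences were those of Rif1 (-1.17), a regulator of replication timing, Tcea3 (1.80) and the chromatin protein Utf1 (0.78).

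Factors of the naive state lay lower in adult 129SV more often, with 12 of 20 lower, 5 higher (3 without adult 129SV replicate 3) and a median of -0.40. Lower were thus 60% and higher 25%, beside 23.4% and 26.5% of all genes. Nr0b1, a nuclear receptor of the ES cell network, read 10.88, 11.04 and 10.99 against 12.16, 12.18 and 12.19 and fell by 1.2 (SE 0.0539). Esrrb, another nuclear receptor that sustains self-renewal, read 10.60, 10.49 and 10.66 against 11.75, 11.70 and 11.76 and fell by 1.15 (SE 0.0809). Tfcp2l1, which acts with both, fell by 1.1 (SE 0.0635). Neither group overlapped the other for these 3 genes, which held for 61.0% of all genes. Klf4 fell by 0.31 (adjusted p = 0.000433), and Zfp42, the naive marker Rex1, differed by -0.22 with a 95% confidence interval of -0.54 to 0.09 (adjusted p = 0.225). Dppa3, which protects maternal methylation in the egg, went the other way at 9.17, 9.15 and 9.53 against 7.91, 8.05 and 8.20, a rise of 1.23 (SE 0.109). In ES 129SV it was lowest of the 4 groups, at 6.83 to 6.94.

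Genes that mark the later, primed epiblast were higher more often, with 8 of 16 called higher, 2 lower and a median of 0.29. The shares were 50% and 12.5%, beside 26.5% and 23.4% of all genes. Dnmt3a read 10.64, 10.55 and 10.57 in adult 129SV against 8.96, 8.93 and 8.98 in ES Stra8, and rose by 1.63 (SE 0.0575, adjusted p = 3.34e-12). Its parts were even, 0.81 from origin and 0.82 from background. Dnmt3b, the second de novo methyltransferase, rose by 1.31 and Fgf5, the marker ligand of the primed state, by 0.65. In the list of DNA methylation genes, which shares both methyltransferases, 7 of 18 were higher and 8 lower, with a median of -0.11. There the dioxygenase Tet2 fell by 0.58 and the repressor subunit Mbd3 rose by 0.64. The 28 Polycomb genes gave 11 higher and 10 lower with a median of 0.02 (0.07 without adult 129SV replicate 2, 0.09 after quantile normalization), and Bmi1 fell by 0.92.

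Targets and antagonists of the Wnt pathway were called higher in 12 of 23 cases and lower in 2, with a median of 0.23. Called higher and lower were thus 52.2% and 8.7%, beside 26.5% and 23.4% of all genes. The lower count was 1 without replicate 1 or 3 of either group, with the 6 arrays alone and after quantile normalization. Beside Lef1, the secreted inhibitor Notum rose by 1.35, the feedback gene Axin2 by 0.62 and the ligand Wnt7b by 0.52. Of the genes of the BMP pathway, which supports self-renewal through Id proteins, 10 of 19 were higher and 3 lower (median 0.26). The ligand Bmp4 read 9.46, 9.40 and 9.39 against 8.16, 8.06 and 7.96 and rose by 1.35 (SE 0.0963, adjusted p = 7.89e-09). Its targets Id1 and Id3 rose by 0.97 and 1.07. The family member Id4 moved against them at 8.27, 8.17 and 8.23 against 9.30, 9.36 and 9.38, a difference of -1.12 (SE 0.0559).

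In FGF and ERK signalling 10 of 20 genes were higher and 3 lower, with a median of 0.17, led by Etv4 (1.78) and the ligand Fgf15 (0.82). Against these 50% and 15%, all genes gave 26.5% and 23.4%. Among 15 genes of Nodal and activin signalling 6 were higher and 7 lower. Their median of -0.06 turned to 0.03 after quantile normalization. The Nodal antagonist Lefty2 read 9.15, 9.31 and 9.34 against 10.84, 10.87 and 10.95, a difference of -1.62 (SE 0.0673), and Lefty1 fell by 0.39. Inhba, a subunit of activin, read 11.23, 11.35 and 11.27 against 10.04, 9.96 and 10.08, a rise of 1.26 (SE 0.0652). Of 23 retinoid pathway genes 9 were higher and 1 was lower (median 0.18), with the binding protein Crabp2 at 0.95 and the receptor Rarg at 0.78.

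**Figure D3:**
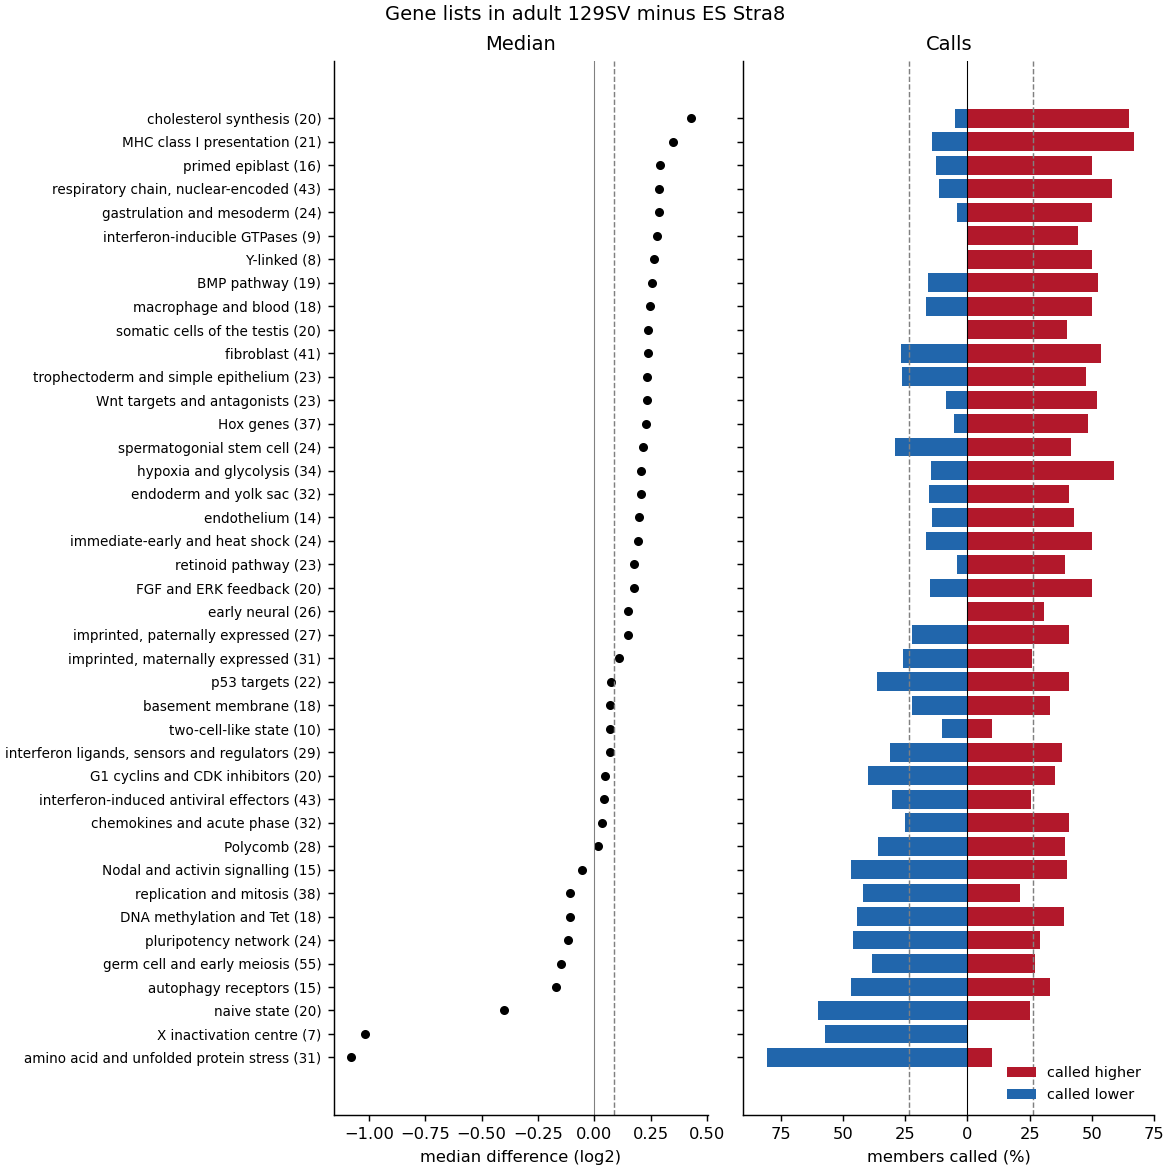
Median difference, adult 129SV minus ES Stra8 (left, log2), and percentage of measured members called higher or lower (right) for 41 gene lists, with the number of members measured in brackets; dashed lines mark the values over all 19938 genes (0.09, 26.5% and 23.4%). The lists of amino acid and unfolded protein stress (-1.08) and of the X inactivation centre (-1.02) have the lowest medians and cholesterol synthesis (0.43) the highest.

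The list with the lowest median held genes of the amino acid response and the unfolded protein response. When amino acids run short or proteins misfold, the translation factor eIF2 is phosphorylated, the transcription factor Atf4 is made, and it switches on transporters and enzymes of amino acid supply together with regulators of cell death. Of 31 members measured, 25 were called lower in adult 129SV (80.6%, beside 23.4% of all genes) and 3 higher, with a median of -1.08, and 17 were at least 2-fold lower. The median origin part was -0.36 and the median background part -0.60. The 3 genes called higher were the chaperone Hspa5 (0.31), its partner Sdf2l1 (0.58) and the transcription factor Xbp1 (0.17). Other genes of the unfolded protein response were lower, among them Dnajb9 (-1.19) and Herpud1 (-1.28).

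Chac1 read 7.63, 7.87 and 7.79 in adult 129SV against 10.44, 10.31 and 10.44 in ES Stra8, a difference of -2.63 (SE 0.0942, adjusted p = 3.67e-12, limma). In adult Stra8 it was as high as in ES Stra8, at 10.51 to 10.56, and in ES 129SV it was 9.49 to 9.82. Nupr1, a stress-induced chromatin protein, read 8.0, 7.90 and 8.03 against 10.32, 10.18 and 10.34, a difference of -2.30 (SE 0.0858). Trib3, a pseudokinase that restrains Akt and Atf4, read 8.98, 8.84 and 9.06 against 11.06, 11.04 and 10.97, a difference of -2.07 (SE 0.0683). For Chac1, Nupr1 and Trib3 adult 129SV was the lowest of the 4 groups. The regulators Ddit3 and Atf4 and the asparagine synthetase Asns, picked after their values were seen, differed by -1.36, -0.60 and -1.1.

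Atf4 binds, with C/EBP partners, sites of the form TGATGNAA. The RefSeq promoter table of GRCm38.p6 holds 27 of the 31 list genes, and the 250 bases before the start of 7 of them contain this word on either strand (TTNCATCA on the other). That is 25.9% of the list genes, beside 3.91% of all 27025 genes of the table. The list was chosen as genes of this response, so its higher share of the word is no result of these arrays. A match describes the letters only, and no binding was measured. All 7 genes with a match were called lower (Atf3, Chac1, Slc7a11, Asns, Nupr1, Herpud1 and Vldlr), beside 80.6% of the whole list. Most list genes without a match were also called lower. In Vldlr the word lies before only 1 of the starts that the promoter table gives. The promoters of Chac1 (chr2:119350992-119351241, plus strand), Nupr1 (chr7:126625471-126625720, minus strand) and Slc7a11, the cystine transporter (chr3:50443614-50443863, minus strand), are given because these genes had large falls and show the word at different distances. It starts 193 bases before the gene's start in Chac1, 110 in Nupr1, and 66 and 47 in Slc7a11, and it is in capitals.
Chac1: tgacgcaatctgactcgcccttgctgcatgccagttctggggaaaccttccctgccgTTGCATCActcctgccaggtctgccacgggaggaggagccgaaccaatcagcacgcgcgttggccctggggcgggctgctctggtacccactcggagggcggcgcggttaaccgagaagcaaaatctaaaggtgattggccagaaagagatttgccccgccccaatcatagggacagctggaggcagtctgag
Nupr1: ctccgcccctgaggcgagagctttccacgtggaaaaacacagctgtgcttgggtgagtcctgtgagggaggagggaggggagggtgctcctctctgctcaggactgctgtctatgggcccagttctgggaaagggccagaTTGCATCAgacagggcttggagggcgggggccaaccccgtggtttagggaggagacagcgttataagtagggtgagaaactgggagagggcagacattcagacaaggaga
Slc7a11: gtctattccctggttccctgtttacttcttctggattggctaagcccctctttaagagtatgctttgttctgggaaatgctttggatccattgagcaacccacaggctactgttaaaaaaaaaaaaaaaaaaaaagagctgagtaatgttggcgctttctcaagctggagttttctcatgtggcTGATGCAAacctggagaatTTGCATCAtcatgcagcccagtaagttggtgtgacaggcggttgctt

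Germ line genes went both ways, and the large differences leaned to lower. Of 55 genes of germ cells and early meiosis, 15 were higher (27.3%) and 21 lower (38.2%), with a median of -0.15. Over all genes 26.5% were higher and 23.4% lower. At least 2-fold higher were 3 and at least 2-fold lower 12, beside 0.848% and 2.85% of all genes. Besides Sycp3, the largest falls were in Taf7l, a testis form of a TFIID subunit (-2.19), in Meiob, which binds single-stranded DNA during recombination (-2.19), and in Meioc, which keeps meiotic transcripts stable (-2.12). Meioc read 7.73, 7.33 and 7.88 against 9.78, 9.70 and 9.83, and both 129SV groups lay below both Stra8 groups. Stra8 itself, the gatekeeper of meiosis, read 6.54, 6.60 and 6.58 against 5.46, 6.17 and 5.90, a rise of 0.73 (SE 0.123, adjusted p = 0.000107). Its levels followed the background, with origin and background parts of 0.03 and 0.70. The germ cell helicase Ddx4 fell by 0.42 (adjusted p = 0.000475). The RNA-binding protein Dazl differed by -0.09, with an interval of -0.30 to 0.12 (adjusted p = 0.485).

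Markers of spermatogonial stem cells also went both ways, with 10 of 24 higher, 7 lower and a median of 0.22. These shares of 41.7% and 29.2% stand beside 26.5% and 23.4% of all genes. Gfra1, the receptor chain for GDNF, read 7.76, 7.69 and 8.04 against 7.59, 7.59 and 7.66, a difference of 0.22 (SE 0.0878, adjusted p = 0.0505) that did not pass the test. It passed under 7 alternative settings, with adjusted p from 0.0198 to 0.0492. Zbtb16, the self-renewal factor PLZF, differed by 0.15 with an interval of -0.02 to 0.31 (adjusted p = 0.133). Its adjusted p was 0.0256 without adult 129SV replicate 3. The neuronal and spermatogonial hydrolase Uchl1 fell by 0.67. Of 10 genes of the 2-cell-like state 1 was higher and 1 lower, and of 8 Y-linked genes 4 were higher and none lower, led by Uba1y (0.60). Without adult 129SV replicate 1 these counts of higher genes were 0 and 2. The count of the 2-cell-like list was 2 without adult 129SV replicate 3 and 3 with the 12 undifferentiated arrays alone. Its called gene, Usp17ld, was not called with the 6 arrays of the pair alone (adjusted p = 0.0778, limma).

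Imprinted genes are transcribed from a single parental copy. Of 31 maternally expressed genes 8 were higher and 8 lower (25.8% each, beside 26.5% and 23.4% of all genes), with a median of 0.11. Of 27 paternally expressed genes 11 were higher and 6 lower (40.7% and 22.2%), with a median of 0.15. At least 2-fold lower were 4 of the former and 1 of the latter. Igf2, the paternally expressed growth factor, read 9.65, 9.67 and 9.71 in adult 129SV against 8.44, 8.40 and 8.40 in ES Stra8 and rose by 1.27 (SE 0.0528, adjusted p = 2.05e-11). Its maternally expressed clearance receptor Igf2r read 10.31, 10.34 and 10.31 against 11.57, 11.56 and 11.56 and fell by 1.24 (SE 0.0487). Grb10, an adaptor that restrains insulin signalling, read 9.18, 9.07 and 9.20 against 11.31, 11.29 and 11.32 and fell by 2.16 (SE 0.0541). ES Stra8 was the lowest group for Igf2, and adult 129SV the lowest for Igf2r and Grb10. The arrays do not tell parental alleles apart.

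The Dlk1-Dio3 region of chromosome 12 was singled out after its values were seen, and is given as a description. It spans 829 kb and holds the paternally expressed genes Dlk1, Rtl1 and Dio3 and, from the maternal copy, the non-coding RNAs Meg3 and Rian, small nucleolar RNAs and a large cluster of microRNAs. In mouse pluripotent cells the activity of its maternal transcripts is known to vary between lines. Of 40 microRNA genes measured, 38 were called lower in adult 129SV, none higher, and 25 were at least 2-fold lower. The median was -1.23. Of the 257 other microRNA genes on the array 46 were lower and 48 higher, with a median of 0.08. The group mean was highest in ES Stra8, of the 4 undifferentiated groups, for 39 of the 40 genes. The pair not called were Mir431 (-0.28) and Mir666 (0.17).

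The microRNA genes with the largest falls were Mir495, Mir411, Mir382, Mir376a and Mir376c. Mir495 read 5.34, 5.69 and 5.40 in adult 129SV against 8.0, 8.14 and 8.09 in ES Stra8, and fell by 2.6 (SE 0.199, adjusted p = 1.75e-08, limma). Mir411 read 5.44, 5.44 and 4.98 against 7.78, 7.57 and 7.74 and fell by 2.41 (SE 0.196). In both cases adult Stra8 came next after ES Stra8, at 6.26 to 6.54 for Mir495 and 6.41 to 6.72 for Mir411. Mir376c and Mir376a read between 2.78 and 3.26 in the 6 adult 129SV values and between 5.0 and 5.24 in ES Stra8. Probe sets of microRNA genes read total RNA with probes in the hairpin, so the values need not follow the mature forms. Mature sequences from RefSeq (GRCm38.p6), matched by gene name for all 40 genes, are shown for these genes and for Mir379 and Mir376b, 5′ to 3′, with the seed (bases 2 to 8, which pair with targets) in capitals. They are given because these genes had the largest falls or share a seed with one that did, with 1 mature form per gene, and the other forms in the table carry other seeds.
mmu-miR-495-3p: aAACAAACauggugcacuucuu
mmu-miR-382-5p: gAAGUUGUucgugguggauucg
mmu-miR-376a-3p: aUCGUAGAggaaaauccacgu
mmu-miR-411-3p: uAUGUAACacgguccacuaacc
mmu-miR-379-3p: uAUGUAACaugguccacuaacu
mmu-miR-376b-5p: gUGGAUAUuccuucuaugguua
mmu-miR-376c-5p: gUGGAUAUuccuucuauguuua

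Of 76 mature microRNAs that the table holds for the region, with 1 form only for 4 genes (Mir376c, Mir485, Mir487b and Mir539), 4 share a seed with another, in 2 groups. The seed AUGUAAC is that of mmu-miR-379-3p and mmu-miR-411-3p, whose genes differed by -1.95 and -2.41. The seed UGGAUAU is that of mmu-miR-376b-5p and mmu-miR-376c-5p, whose genes differed by -1.66 and -2.1. Among the long transcripts, Rian, the host of small nucleolar RNAs, read 7.57, 7.57 and 7.64 against 10.14, 10.12 and 10.10 and fell by 2.52 (SE 0.0704, adjusted p = 4.28e-13). Meg3 fell by 0.87 (SE 0.0484). The paternally expressed genes did not fall: Dlk1 rose by 0.53 (adjusted p = 2.42e-06), while Rtl1 (-0.15, adjusted p = 0.272) and Dio3 (0.23, adjusted p = 0.0908) did not pass the test.

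**Figure D4:**
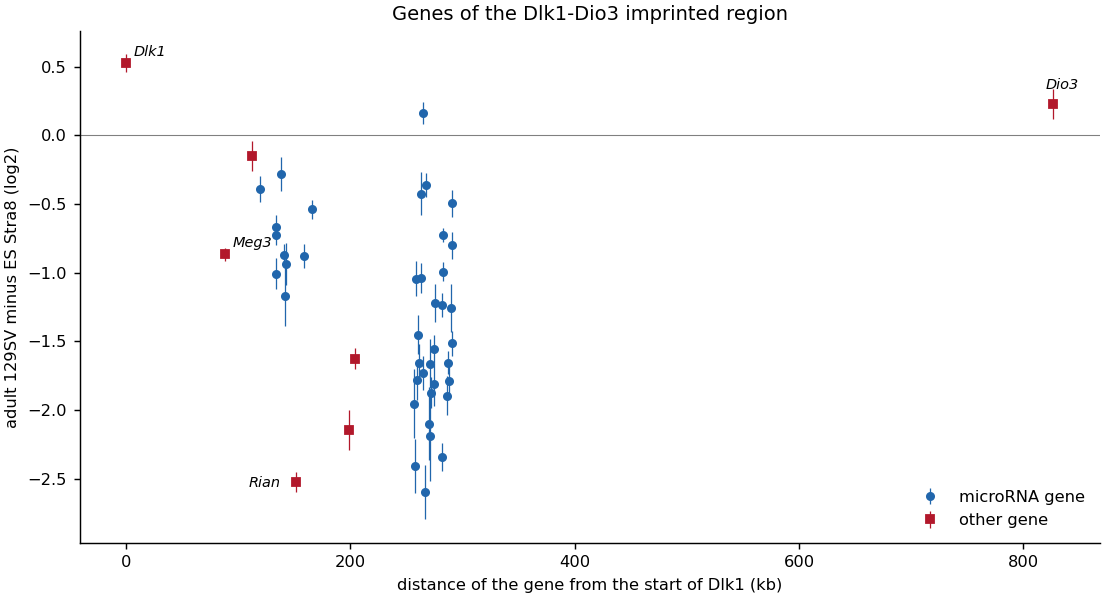
Difference adult 129SV minus ES Stra8 (vertical axis, log2, with standard errors) for the 47 genes measured in the Dlk1-Dio3 region against the distance of each gene from the start of Dlk1 (horizontal axis, kb). All but 1 of the microRNA genes lie below 0, between -2.6 and -0.28, and Dlk1 and Dio3 at the ends lie above it.

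Of 7 genes around the X inactivation centre, 4 were lower (57.1%, beside 23.4% of all genes) and none higher, with a median of -1.02. Rlim, the ubiquitin ligase that activates Xist, read 11.20, 11.05 and 10.98 against 12.09, 12.06 and 12.13 and fell by 1.02 (SE 0.0672). Chic1, Nap1l2 and 4930519F16Rik, its neighbours on the X chromosome, differed by -1.1, -1.11 and -2.1. Xist itself read 7.48, 7.44 and 7.61 against 7.51, 7.39 and 7.47, a difference of 0.05 (adjusted p = 0.753, interval -0.22 to 0.33).

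The genes induced by interferon had origin and background parts of opposite sign in their medians. Of 43 antiviral effectors induced by interferon, 11 were higher and 13 lower, with a median of 0.04, beside a median origin part of -0.89 and a median background part of 0.97. Their shares called, 25.6% and 30.2%, stand beside 26.5% and 23.4% of all genes. For 9 interferon-inducible GTPases, 4 higher and none lower, the median was 0.28, with parts of -1.02 and 1.46. With the lowest 30% of genes by mean left out, the median of the GTPases was 0.79 and the count of lower effectors was 8. The regulator Irf7 read 7.42, 7.13 and 7.36 in adult 129SV against 8.14, 8.24 and 7.98 in ES Stra8, a difference of -0.82 (SE 0.0933), while ES 129SV lay far above both at 12.52 to 12.53. The chemokine Cxcl10 read 7.17, 7.45 and 7.27 against 8.83, 8.73 and 8.82, a difference of -1.5 (SE 0.0841), beside 13.13 to 13.17 in ES 129SV. For both genes ES 129SV was the highest of the 4 groups, and adult 129SV the lowest. The origin effect (adult minus ES) was -5.22 in 129SV and 0.67 in Stra8 for Irf7, and -5.85 and 0.44 for Cxcl10. A mean origin part therefore did not describe each background for these genes. Ifit1 and Ifit3, which bind foreign RNA or its complexes, differed by -1.07 and -0.96, whereas the activator Irf1 rose by 1.04. Of 29 ligands, sensors and regulators 11 were higher and 9 lower (median 0.07, or 0.04 without adult 129SV replicate 2).

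Genes of class I antigen presentation were called higher in 14 of 21 cases (66.7%) and lower in 3, with a median of 0.35 and median parts of -0.25 from origin and 0.55 from background. Over all genes 26.5% were called higher and 23.4% lower. The subunit Psmb10 read 9.46, 9.40 and 9.54 against 7.84, 7.87 and 7.78 and rose by 1.64 (SE 0.0876), and Tapbp, which loads peptides, rose by 1.03. The light chain B2m read 10.22, 10.10 and 10.28 against 11.32, 11.26 and 11.44 and fell by 1.14 (SE 0.0903), and the class I genes H2-Q4 and H2-Bl differed by -2.71 and -0.55. Of 32 chemokine and acute phase genes 13 were higher and 8 lower (median 0.03), with Saa3 (-1.48) and Lcn2 (-2.77) low and Ccl3 (2.11) high.

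Metabolic genes were higher more often than lower, beside 26.5% higher and 23.4% lower over all genes. Shares higher were 65% for cholesterol synthesis, 58.1% for the respiratory chain and 58.8% for hypoxia and glycolysis. The matching shares lower were 5%, 11.6% and 14.7%. Cholesterol synthesis had 13 of 20 genes higher and 1 lower (none without adult 129SV replicate 1), with the highest list median, 0.43. Its enzymes Dhcr7 (1.1), Mvd (1.07), Pmvk (1.07) and Fdps (0.98) rose the most. Nuclear-encoded subunits of the respiratory chain were higher in 25 of 43 cases and lower in 5 (median 0.29), with Cox6b1 at 1.07 and Ndufb10 at 0.99. Hypoxia and glycolysis genes gave 20 of 34 higher and 5 lower (median 0.21, with parts of -0.34 from origin and 0.57 from background). The lactate exporter Slc16a3 rose by 1.34 and the glucose transporter Slc2a1 by 0.97, whereas the oxidase Ero1a fell by 1.04.

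Replication and mitosis had 8 of 38 genes higher (21.1%) and 16 lower (42.1%), with a median of -0.11. All genes gave 26.5% higher and 23.4% lower, and genes with a mean above 8 gave 31.5% and 40.4%. The spindle motors Kif11 and Cenpe differed by -1.42 and -1.11 and the polymerase subunit Pola1 by -1.13, while cyclin Ccne1 rose by 0.98. Among 20 G1 regulators 7 were higher and 8 lower. Myc read 10.65, 10.49 and 10.73 against 9.35, 9.27 and 9.39 and rose by 1.29 (SE 0.0705), and the inhibitor Cdkn1b and the retinoblastoma gene Rb1 differed by -1.11 and -1.27. Of 22 p53 targets 9 were higher and 8 lower, and the death effector Pmaip1 fell by 1.29. Immediate-early and heat shock genes were higher in 12 of 24 cases and lower in 4 (median 0.19), with Ier3 at 0.98. Among 15 autophagy receptors and their binding partners 5 were higher and 7 lower, and Sqstm1 fell by 1.02.

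Gene length moved with these results. With genes ranked by their genomic span and cut into 5 equal bins, the median difference was 0.16 in each of the 2 bins of shortest genes, 0.09 in the middle bin, and 0.0045 and -0.047 in the 2 bins of longest genes. Called lower were 8.26% and 13.3% of genes in the 2 bins of shortest genes, and 34.5% and 38.5% in the 2 of longest. Called higher were 26.1% and 35.7%, against 22.1% and 18.7%. Respiratory chain genes have a median span of 7.51 kb and replication genes of 16.2 kb, beside 17.7 kb for all genes. Median spans were 3.71 kb for Hox genes and 5.3 kb for class I presentation. They were 5.61 kb for gastrulation and mesoderm and 6.09 kb for primed epiblast genes. The shares of all genes set beside a list are not those of genes of like span. The part of span in the list values was not tested.

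Lists of other lineages held more higher than lower calls, mostly of small size, beside 26.5% higher and 23.4% lower over all genes. Of 24 genes of gastrulation and mesoderm 12 were higher and 1 lower (50% and 4.17%, median 0.29), and of 37 Hox genes 18 were higher and 2 lower (48.6% and 5.41%, median 0.23). The count of lower mesoderm genes was 2 without adult 129SV replicate 2, and 0 without adult 129SV replicate 3 or ES Stra8 replicate 1 or 3. The count of higher Hox genes was 10 without adult 129SV replicate 1 or 2 and 11 without ES Stra8 replicate 3. Early neural genes gave 8 of 26 higher (30.8%, with 13 genes after quantile normalization) and none lower (1 without replicate 2 of either group), with a median of 0.15. Tubb3 rose by 0.55 and Nes by 0.81. Endoderm and yolk sac gave 13 of 32 higher and 5 lower (40.6% and 15.6%, median 0.21), and trophectoderm and simple epithelium 11 of 23 higher and 6 lower (47.8% and 26.1%, median 0.23). In the latter lists the keratin Krt19 rose by 1.38, the heart and trophoblast factor Hand1 by 1.18 and the matrix protein Sparc by 1.05. The chemokine receptor Cxcr4 fell by 1.02. Basement membrane genes gave 6 of 18 higher and 4 lower (33.3% and 22.2%), which is near the shares of all genes.

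Somatic cells of the testis gave 8 of 20 genes higher (40%) and none lower (median 0.24), with 1 lower without adult 129SV replicate 2. Over all genes the shares were 26.5% higher and 23.4% lower. Wt1, a transcription factor of the gonad and kidney, read 8.62, 8.57 and 8.61 against 6.99, 7.14 and 6.81, a rise of 1.62 (SE 0.0869). Macrophage and blood genes gave 9 of 18 higher (5 with low genes left out) and 3 lower (median 0.25) with Lyz2 at 1.30, and endothelial genes 6 of 14 higher and 2 lower. Of the summed linear signals of the marker sets for these cells, that of the testis was higher in adult 129SV, that of macrophages overlapped and that of endothelium was lower. They were 778 to 799 in adult 129SV and 639 to 662 in ES Stra8 for 7 Sertoli and Leydig markers, 1444 to 1584 and 1555 to 1623 for 6 macrophage markers, and 1172 to 1222 and 1635 to 1670 for 5 endothelial markers. A linear sum follows its brightest members. Called higher and lower were 3 and 0 of the Sertoli and Leydig markers, 3 and 1 of the macrophage markers, and 1 and 2 of the endothelial markers. The median differences were 0.23, 0.29 and 0.02. The endothelial sum therefore does not describe each of its markers. In bulk RNA, fewer cells of a type and less RNA per cell cannot be told apart.

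Fibroblast genes went both ways, with 22 of 41 higher (53.7%) and 11 lower (26.8%), beside 26.5% and 23.4% of all genes. Their median was 0.24. The collagenase Mmp13 read 10.66, 10.38 and 10.61 against 12.32, 12.25 and 12.25, a difference of -1.72 (SE 0.0818). The matrix proteoglycan Dcn read 10.15, 10.12 and 10.18 against 11.76, 11.72 and 11.74, a difference of -1.59 (SE 0.0547). S100a4, a calcium-binding protein of motile cells, read 9.91, 9.52 and 9.91 against 8.24, 8.34 and 8.23, a rise of 1.51 (SE 0.121). The homeobox factor Prrx1 rose by 0.15 (adjusted p = 0.0286), a call lost without either of 2 replicates in each group (adjusted p from 0.0606 to 0.11). The summed linear signal of 9 fibroblast markers was 15940 to 16317 in adult 129SV and 12639 to 13146 in ES Stra8. It was 34236 to 34566 in ES 129SV and 22009 to 22555 in adult Stra8. Of the 9 markers 5 were higher and 2 lower in adult 129SV. The part of such cells in the differences was not tested.

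Whole chromosomes stood apart in these arrays. Genes of chromosome 11 were called higher in 37.4% of 1563 cases and lower in 17.7%, and those of chromosome 8 in 37.4% and 17.2% of 955. Chromosome 12 gave 17.3% higher and 38.3% lower of 652, and chromosome 13 gave 19.7% and 31.3% of 732. To see which group moved, the 8828 genes with a mean above 8 were centred on their mean over the 12 undifferentiated arrays, and each chromosome's median was taken relative to all of them. On chromosome 11 adult 129SV gave 0.20, 0.22 and 0.21 and ES Stra8 gave 0.02, 0.03 and 0.03, beside -0.13 to -0.12 in ES 129SV and -0.11 in adult Stra8. On chromosome 8 the same groups gave 0.19, 0.20 and 0.19 against 0.03, 0.03 and 0.03, and every other undifferentiated array lay between -0.12 and -0.11. Adult 129SV was thus the highest group on both chromosomes.

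Chromosome 1 gave -0.18, -0.18 and -0.19 for adult 129SV, -0.03, -0.04 and -0.04 for ES Stra8, and 0.25 to 0.27 for adult Stra8. Chromosomes 6, 8, 11 and 15 had a higher median than all other genes in 5 of 5 span bins, and chromosomes 1, 2, 3 and 13 in none. Replicates of a group differed by far less than the groups on chromosomes 8 and 11. The part of chromosome 11 in the differences of Ccl3, Upp1, Castor1, Atox1, Calcoco2, Etv4 and Itga3 was not tested. No DNA was measured.

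**Figure D5:**
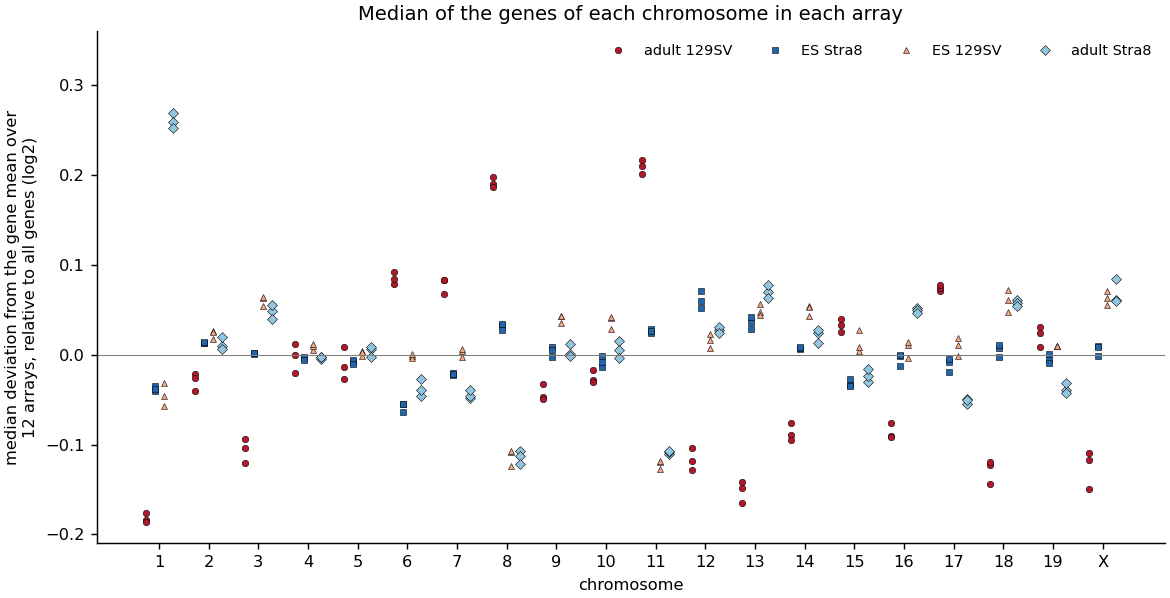
Median deviation of the genes of each chromosome (mean above 8 on the log2 scale) from their mean over 12 undifferentiated arrays, relative to all such genes (vertical axis, log2), for chromosomes 1 to 19 and X (horizontal axis); each point is 1 array. Adult 129SV lies highest on chromosomes 8 and 11, near 0.19 and 0.21, and adult Stra8 on chromosome 1, near 0.26.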

How the data were processed

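Total RNA of 18 mouse stem cell cultures was measured, per the labels' protocols, after Trizol isolation, DNase I treatment and biotin labelling of 300 ng. The deposited values are log2 signals, for which the submitters' processing notes name RMA and Affymetrix Expression Console without versions. Joint normalisation of the arrays is not stated in the sources used here. RMA assumes alike distributions, so a shift shared by most genes would be lost. No detection call was used, so no value was set against background.

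Values were used as deposited. Of 35556 probe sets, 21789 had 1 gene symbol in the platform annotation, and 21698 of these matched RefSeq (GRCm38.p6). For 999 genes with several, the brightest on average was taken. The 1621 with several symbols and the 12146 without one were left for a separate count. A linear model of 6 group means over all 18 arrays was fitted in limma 3.58.1 (R 4.3.3, lmFit and eBayes, 12 residual and 3.78 prior degrees of freedom) and tested on simulated data. The 3 arrays per group limit the precision. SEs share the spread of all groups.

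Members and lists were chosen with earlier results of these data known. The 41 lists held 1049 gene entries, of which 946 were measured; they are described by counts and medians, with no test of a list. Named were the 15 largest called differences in each direction (at least 2-fold, arrays not overlapping, clone names and small RNA genes passed over), up to 4 called genes per list with the largest difference, and 20 genes given in any case. Genes outside this rule were chosen after their values were seen: Slc7a11, Herpud1, Vldlr, Atf3, Dnajb9, H2-Bl, Snord118, Vaultrc5, the Dlk1-Dio3 genes and those said so in the text. Alternatives were array centring, quantile normalization, a filter on low genes, the 6 or 12 arrays alone, a replicate block, array weights, a variance trend, each replicate left out and every probe set. Chromosome and span summaries were added after seeing the data.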

Additional observations from a re-analysis of the deposited data

Results flagged for a closer look

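For 9 of the 10 genes with the largest named differences (5 in each direction), the effect of origin differed between the backgrounds in a test of the interaction (limma, adjusted over all genes, of which 43.1% were called). The values are the origin effect in 129SV minus that in Stra8, both adult minus ES. Muc3 gave 2.21 (2.03 in 129SV and -0.18 in Stra8), Ccl3 -2.54 (-1.41 and 1.14), Upp1 -0.41 (-0.08 and 0.33), Lef1 -1.78 (-0.68 and 1.1) and Castor1 1.36 (0.86 and -0.50). Among the decreases, Nr1h5 gave -1.23 (0.17 and 1.4), Ephx2 -0.52 (-0.82 and -0.30), Lcn2 -5.20 (-3.93 and 1.27) and Kcnt2 -0.83 (-0.95 and -0.12). The interaction of Sycp3 was 0.65 (adjusted p = 0.0504) and passed under 5 of the alternatives (adjusted p from 0.0178 to 0.0423). The interaction does not enter the difference between adult 129SV and ES Stra8, which is the sum of both mean effects.

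Probe sets without a single gene name, left out of the gene test, also held large differences. Of the 12146 with no symbol, 4401 (36.2%) were called in a fit of all probe sets, 197 of them at least 2-fold higher and 905 at least 2-fold lower in adult 129SV, down to -4.53. Of the 1621 with several symbols, 611 (37.7%) were called, 39 at least 2-fold higher and 31 at least 2-fold lower.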

How the results depend on the processing

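The number of genes called ranged from 9312 (lowest 30% of genes by mean left out) to 11325 (12 undifferentiated arrays alone) under the settings that keep all replicates of the pair, and from 8722 to 9474 with 1 replicate left out, beside 9964. The other counts over all genes stayed within 1.5 times their value. Of 82 counts of list members called, 69 did so under every alternative. Medians stayed within their spread over single arrays under every alternative for 10 of 41 lists and 2 of 20 chromosomes. Sign turns were counted only among medians that moved further than that. They were found for 2 lists (Nodal signalling and the 2-cell-like state) and 9 chromosomes in at least 1 alternative, chromosomes 8 and 11 not among them. After quantile normalization the medians of the pluripotency, DNA methylation and replication lists were -0.04, -0.06 and -0.02, and those of antiviral effectors, interferon regulators and chemokines 0.08, 0.12 and 0.07. Higher genes made up 53.1% of the calls, 56.6% after centring the arrays, 60.2% after quantile normalization and 50.1% without adult 129SV replicate 2. The median difference of all genes was 0.09, 0.11 and 0.12 as deposited, centred and quantile-normalized. Of 181 named genes, 169 kept direction and call under all alternatives and none reversed. Besides the genes described above, calls were lost for Usp17ld (0.82, adjusted p = 0.071, without adult 129SV replicate 1, and with the 6 arrays alone), Gbp5, Lyz1, Eif2s3y and Sry with a replicate left out, and for another probe set of Eed (-0.06) and of Gabarapl2 (0.22). Zfp42 passed with the 6 or 12 arrays alone (adjusted p = 0.0179 and 0.00417). Whether the replicate numbers pair the samples cannot be decided here, since deviations of 3 arrays from their own mean are not independent. Same-numbered arrays of the pair correlated, in their deviations from the group means, at -0.0031, 0.143 and 0.0862. Differently numbered ones ran from -0.166 to 0.0852. With the number as a block 10064 genes were called. The array weights were estimated without full convergence.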
